A study of Mus musculus with 8 samples.

Results

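Osr1, Foxf1, Foxf2, Nkx2-3, Barx1 and Wt1 encode transcription factors of splanchnic and visceral mesoderm, and their RNA was followed through 8 libraries of differentiating mouse embryonic stem cells. The 6 genes were taken by name from the 55487 rows of the deposited count table, and each matched 1 row. They were listed after earlier results of the same comparison were known, in which Osr1 and Nkx2-3 were among the largest falls. Their values between the lines are therefore a description and carry no test. The libraries came from E14-Tg2a, a mouse embryonic stem cell line labelled WT (4 libraries, called parental), and from line 4D of the same cells, labelled Tbx1-/- (4 libraries, called mutant). Both lines were differentiated in serum-free culture towards precardiac mesoderm and harvested on day 6. Line 4D is the only mutant line, so an effect of the Tbx1 genotype and a property of line 4D cannot be told apart. The design text calls the 4 samples of each line biological replicates, and nothing states whether they were run at separate times.

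The lateral plate of the early embryo splits into a somatic layer of the body wall and a splanchnic layer around the gut tube. The splanchnic layer supplies the heart fields and the mesenchyme of the gut, lung and spleen. Hedgehog ligands from the endoderm act on this layer, where the forkhead factors Foxf1 and Foxf2 are known targets and Bmp4 is a signal of the mesoderm itself. Osr1, an odd-skipped zinc finger factor, marks intermediate mesoderm and the posterior part of the second heart field, the splanchnic progenitors that add to the heart. Nkx2-3 is a homeobox factor of gut mesenchyme, spleen and pharynx, Barx1 a homeobox factor of stomach and pharyngeal arch mesenchyme, and Wt1 a zinc finger factor of mesothelium, epicardium and nephric tissue. Tbx1, a T-box factor, is known for its role in pharyngeal mesoderm and endoderm.

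Total counts ranged from 3803561 to 6293907 per library. Tbx1 itself had 39, 65, 38 and 22 counts in parental libraries 1 to 4 and 3, 0, 1 and 0 counts in mutant libraries 1 to 4. With mutant values set to the floor of 3 counts per library, its mean in the mutant line was lower by at least 11.7-fold. Mutant library 4 stood apart, since 14850 genes were detected in it and 18213 to 19134 in each other library, so values without it are given where they matter. The assay counts the 3′ end of each transcript, so the values do not grow with transcript length, and levels are in CPM (counts scaled to a common library total after correction by the trimmed mean of M values, TMM). In bulk RNA, fewer cells of a type and less RNA per cell cannot be told apart.

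Among the 6 genes, windows of the 250 bases of RefSeq before the start (build GRCm38.p6) were available for Nkx2-3, Foxf2 and Barx1 only. Nkx2-3 and Foxf2 are shown, because Nkx2-3 stood clearly lower in the mutant line and Foxf2 was close to the counting floor in both lines. The Nkx2-3 window is chr19:43612075-43612324 on the plus strand and the Foxf2 window is chr13:31625566-31625815 on the plus strand. Capitals mark matches, on either strand, to 8 short motifs that were listed after the sequences had been seen.
Nkx2-3: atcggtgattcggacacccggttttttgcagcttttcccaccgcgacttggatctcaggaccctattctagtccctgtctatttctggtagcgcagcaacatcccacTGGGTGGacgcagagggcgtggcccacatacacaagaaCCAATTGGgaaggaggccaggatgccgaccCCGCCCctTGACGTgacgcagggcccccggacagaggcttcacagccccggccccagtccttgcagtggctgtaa
Foxf2: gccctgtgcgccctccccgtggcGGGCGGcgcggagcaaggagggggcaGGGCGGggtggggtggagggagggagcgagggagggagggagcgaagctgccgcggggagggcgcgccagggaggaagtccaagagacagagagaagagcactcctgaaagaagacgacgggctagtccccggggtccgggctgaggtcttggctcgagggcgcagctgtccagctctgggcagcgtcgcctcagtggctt

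The CCAAT box (letters CCAAT, present in 33.8% of the 32851 windows of this length in the table) matched 2 times in the Nkx2-3 window, on opposite strands and with shared bases, and 0 times in the Foxf2 and Barx1 windows. The GC box (letters GGGCGG, 32.7% of windows) matched 1 time in the Nkx2-3 window, 2 times in the Foxf2 window and 8 times in the Barx1 window, where some matches overlap. A half-site of the cyclic AMP response element (letters TGACGT, 6.47% of windows) matched 1 time, in the Nkx2-3 window. The core bound by GLI factors (letters CCACCCA, 8.11% of windows) matched 1 time in the Nkx2-3 window and 1 time in the Barx1 window. The T-box core (letters GGTGTG) was in 0 of these 3 windows and in 16.3% of all windows. The forkhead core (letters TGTTTA) was in 0 of the 3 and in 12.03% of all windows. The GATA motif (letters AGATAA, 9.99% of windows) and the core of the NK2 factors (letters AAGTG, 40.7% of windows) had 0 matches in the 3 windows as well. All 3 windows were richer in G and C than the median window of 52.4%, at 60.0% for Nkx2-3, 71.6% for Foxf2 and 85.6% for Barx1. The matches describe letters only, and the data hold no measure of binding.

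The counts of the 6 genes could be assigned to them with little ambiguity. The last 300 bases of each annotated transcript of the 6 genes shared 0 words of 31 bases with transcripts of any other gene, Foxf1 and Foxf2 included. Foxf1 lies inside the annotated span of Gm20388 on the same strand, a gene model listed at 0 counts in every library. In the order of parental levels, Foxf1 was first with a mean of 36.7 CPM, followed by Osr1 with 32.2, Nkx2-3 with 20.9, Barx1 with 8.77, Wt1 with 5.82 and Foxf2 with 2.25 CPM. Parental ranges of neighbours in this order overlapped except for Nkx2-3 and Barx1, although Foxf1 was above Osr1 in 4 of 4 parental libraries and in 4 of 4 mutant libraries.

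Osr1 (ENSMUSG00000048387.8, chromosome 12, 9570116 to 9581500, plus strand, GRCm38) had 21.6, 33.5, 37.0 and 36.7 CPM in parental libraries 1 to 4. Its mutant libraries 1 to 4 had 6.05, 20.7, 2.36 and 6.87 CPM. Every mutant library lay below every parental library, but mutant library 2 came close to parental library 1. The means were 32.2 ± 7.22 and 9.00 ± 8.05 CPM (SD, n = 4 per line), a 3.58-fold lower level, and the edgeR log2 fold change, mutant minus parental, was -1.85 ± 0.43 (SE). Mutant library 2 set much of the spread, and without it the log2 fold change was -2.69.

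Nkx2-3 (ENSMUSG00000044220.13, chromosome 19, 43612325 to 43615892, plus strand), whose promoter is printed above, had 26.5, 18.5, 20.6 and 18.1 CPM in parental libraries 1 to 4. Mutant libraries 1 to 4 had 7.06, 9.81, 3.09 and 4.95 CPM. The lines did not overlap, and the highest mutant library was well under the lowest parental one. The means were 20.9 ± 3.90 and 6.22 ± 2.89 CPM (SD, n = 4), 3.36-fold lower, with a log2 fold change of -1.75 ± 0.35 (SE). Nkx2-3 and Osr1 thus stood at about the same log2 distance between the lines, but parental library 1 was the highest of its line for Nkx2-3 and the lowest for Osr1.

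Foxf1 (ENSMUSG00000042812.5, chromosome 8, 121084386 to 121088144, plus strand) had 26.5, 37.0, 39.9 and 43.4 CPM in parental libraries 1 to 4. Mutant libraries 1 to 4 had 35.9, 27.0, 16.7 and 23.6 CPM. The ranges overlapped, with mutant library 1 inside the parental range. Means of 36.7 ± 7.26 and 25.8 ± 7.99 CPM (SD, n = 4) gave a log2 fold change of -0.50 ± 0.24 (SE). Foxf1 was the most abundant of the 6 RNAs in both lines, and it held more of its parental level in the mutant line than Osr1 or Nkx2-3 did.

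Foxf2 (ENSMUSG00000038402.2, chromosome 13, 31625816 to 31631403, plus strand), the paralogue of Foxf1, was close to the limit of detection. It had 18, 21, 7 and 4 counts in parental libraries and 6, 14, 4 and 0 counts in mutant libraries 1 to 4. The 0 in mutant library 4 allows up to 0.825 CPM. Foxf2 did not pass the low-count filter, its lines overlapped, and a difference was not detectable at this depth.

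Barx1 (ENSMUSG00000021381.4, chromosome 13, 48662998 to 48666507, plus strand) had 4.36, 10.05, 7.18 and 13.5 CPM in parental libraries 1 to 4 and 5.71, 7.84, 1.45 and 7.15 CPM in mutant libraries 1 to 4. The ranges overlapped, and the lowest value was that of mutant library 3. The log2 fold change was -0.67 ± 0.52 (SE), an error nearly as wide as the estimate.

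Wt1 (ENSMUSG00000016458.15, chromosome 2, 105126529 to 105173616, plus strand) pointed the other way. It had 2, 37, 48 and 41 counts in parental libraries 1 to 4, or 0.364, 6.64, 7.66 and 8.64 CPM, and 6.22, 6.75, 11.4 and 10.4 CPM in mutant libraries 1 to 4. Parental library 1 lay far below all others, and the remaining libraries of the lines overlapped. The log2 fold change of 0.58 ± 0.59 (SE) moved to 0.18 without parental library 1. That library also had the highest summed level of 18 cardiomyocyte genes, 4015 CPM against 687 to 2161 CPM in the other parental libraries. Over the 8 libraries, deviations of Wt1 and of this sum from their line means had r = -0.59 and rho = -0.64. The exact permutation p of r was 0.0625 (adjusted p = 0.234), and r was -0.32 without the 2 libraries farthest from the median of Wt1. Whether the cardiomyocyte content accounts for the Wt1 value was not tested.

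**Figure D1:**
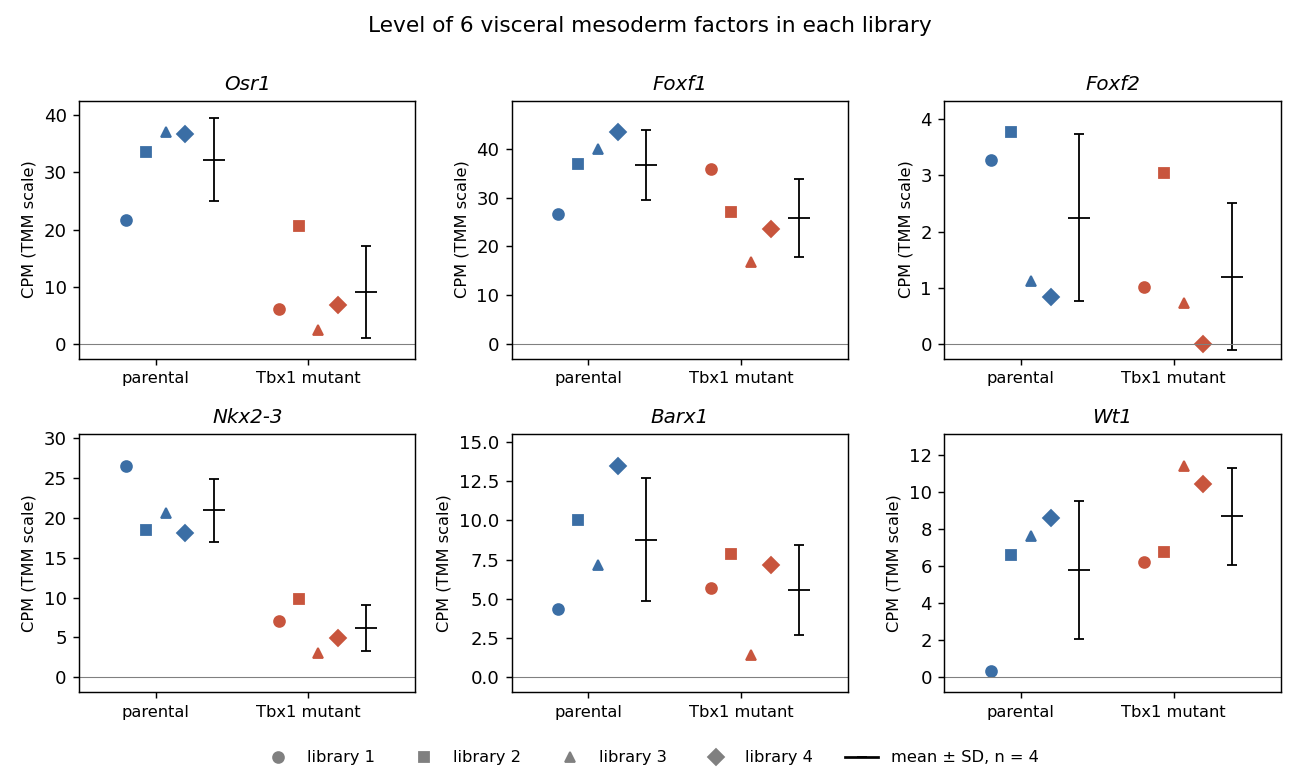
Level of each of the 6 genes in CPM on the TMM scale (vertical axes, linear, each with its own range) in 4 parental (blue) and 4 Tbx1 mutant (red) libraries; marker shapes give the library number within a line, and the black bars are the mean ± SD. The lines do not overlap for Osr1 and Nkx2-3, and they overlap for Foxf1, Foxf2, Barx1 and Wt1.

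Counted over the list, 5 of the 6 genes passed the low-count filter, 4 of these 5 had a negative log2 fold change, and 2 of the 5 (Osr1 and Nkx2-3) had an adjusted p under 0.05 in the fit over all genes. Over all 13280 tested genes this threshold was passed by 1.42%, and nothing is read from the members' count, because the list was drawn up with it known. Of 15 alternative fits, Osr1 was not under the threshold in 7, namely those without parental library 2, 3 or 4, those without mutant library 1, 3 or 4 and that with scaling by library size alone. Nkx2-3 was not under it in 1 fit, that without parental library 1. The lines did not overlap, with the mutant lower, for Osr1 and Nkx2-3 and for 4.04% of all tested genes. A further 3.49% did not overlap with the mutant higher, 0 of the 5 genes among them, which makes 7.52% in either direction. Without mutant library 4 the log2 fold changes were -1.76 for Osr1, -1.66 for Nkx2-3, -0.46 for Foxf1, -0.81 for Barx1 and 0.48 for Wt1.

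Variation among libraries of the same line was not used to choose the genes. In parental libraries, Nkx2-3 varied least, with an SD of 0.25 on the log2 CPM scale, against 0.13 from counting alone. Osr1 and Foxf1 had parental SDs of 0.36 and 0.31, Barx1 of 0.66 and Wt1 of 1.72. In mutant libraries the SD was 1.21 for Osr1, 0.67 for Nkx2-3, 0.45 for Foxf1 and 1.01 for Barx1, each larger than in the parental libraries, while for Wt1 it was 0.42. Counting alone would give the mutant libraries an SD of 0.22 for Osr1 and 0.26 for Nkx2-3.

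Mutant library 3 had the lowest value of its line for 4 of the 5 genes that passed the filter, namely Osr1, Foxf1, Nkx2-3 and Barx1, and the highest for Wt1. Its total of 5501329 counts and its 19134 detected genes were not low. The share of all tested genes that were lowest in this library is not given here. Of the 7 genes called lower in the lists below, 4 were lowest in mutant library 3, 1 in mutant library 1 and 2 in mutant library 4. In parental library 1, Osr1, Foxf1, Barx1 and Wt1 were at their parental minimum, while Nkx2-3 was at its maximum.

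**Figure D2:**
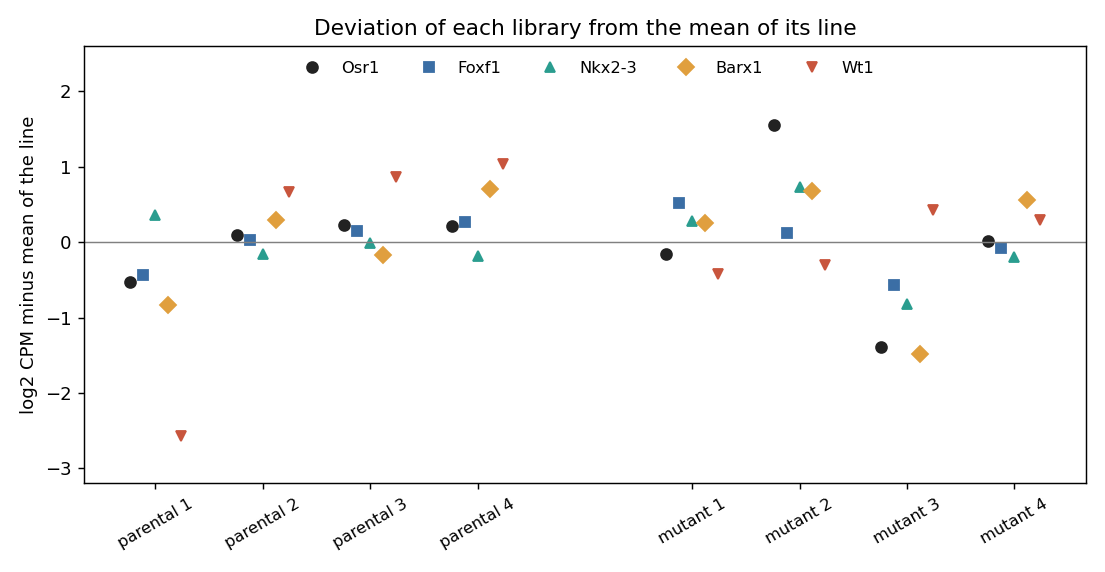
Deviation of log2 CPM from the mean of the line (vertical axis) in each of the 8 libraries (horizontal axis) for the 5 genes that passed the low-count filter, 1 marker shape per gene. In mutant library 3 Osr1, Foxf1, Nkx2-3 and Barx1 are all below 0 and Wt1 is above it; in parental library 1 Wt1 lies lowest.

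To ask whether the factors varied together beyond the difference between the lines, the deviations from the line means were correlated over the 8 libraries. The 10 gene pairs and the 5 relations with the cardiomyocyte sum formed a family of 15, each tested by a two-sided exact permutation within lines (576 arrangements, smallest possible p 0.00174). None of the 15 passed after Benjamini-Hochberg adjustment, where the smallest adjusted p was 0.234 for Pearson's r and 0.378 for Spearman's rho. Osr1 and Barx1 had r = 0.81 (exact permutation p = 0.0399) and rho = 0.69 (exact permutation p = 0.0885), and r was 0.71 without the 2 libraries farthest from the median of Osr1. Nkx2-3 and Wt1 had r = -0.52 (exact permutation p = 0.0174) and rho = -0.55 (exact permutation p = 0.0521), and r was -0.84 without the 2 farthest libraries. Osr1 and Nkx2-3 had r = 0.74 (exact permutation p = 0.172) and rho = 0.38 (exact permutation p = 0.500), but r was -0.82 without the 2 farthest libraries, so the positive relation rested on these. Foxf1 and Barx1 had r = 0.78 (exact permutation p = 0.0625) and rho = 0.52 (exact permutation p = 0.240), with r = -0.14 without the 2 farthest libraries. All points share library and depth, and 1.14% of tested genes followed Osr1 at least as closely as Barx1 did.

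The genes whose pattern over the 8 libraries was most like that of a member were found by Pearson's r of log2 CPM among 9023 genes with a mean of at least 10 CPM. For Osr1 they were Hoxb5os (r = 0.99), Gm45889 (0.98) and March9 (0.98). Hoxb5os averaged 49.3 ± 9.34 CPM in the parental line and 16.4 ± 14.9 CPM in the mutant line (SD, n = 4). For Foxf1 they were Phf14 (r = 0.99), Ep400 (0.95) and Depdc5 (0.94), and for Nkx2-3 they were Clybl (0.98), Gpatch8 (0.98) and Rdx (0.97). The likeness includes the difference between the lines and is a description.

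The loci of the forkhead members hold related genes, which were examined next. Foxf1 lies in a cluster on chromosome 8 with Foxc2 and Foxl1, and the long noncoding RNA gene Fendrr starts 1275 bases away on the opposite strand. Fendrr, known to be expressed with Foxf1 in lateral mesoderm, had 9.64, 16.1, 21.7 and 23.0 CPM in parental libraries 1 to 4 and 11.4, 12.6, 11.6 and 14.6 CPM in mutant libraries. Parental library 1 was the lowest of its line for Fendrr as it was for Foxf1. Mutant library 1, in contrast, was the lowest of its line for Fendrr (11.4 CPM) and the highest for Foxf1 (35.9 CPM). The log2 fold changes of Fendrr and Foxf1 were -0.49 ± 0.31 and -0.50 ± 0.24 (SE). Fendrr did not pass the threshold (edgeR adjusted p = 0.575). Foxc2, 28.0 kb from Foxf1, averaged 7.53 ± 4.27 CPM in the parental line and 2.62 ± 1.77 CPM in the mutant line (SD, n = 4) and did not pass (log2 fold change -1.52 ± 0.68, edgeR adjusted p = 0.379). Foxl1 had 0 counts in every parental library and at most 3 in a mutant one.

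Foxf2 lies between Foxq1 and Foxc1 on chromosome 13, at 64.8 kb from Foxq1 and 175 kb from Foxc1. Foxc1, a forkhead factor of pharyngeal and paraxial mesoderm, had 52.9, 54.0, 41.5 and 38.8 CPM in parental libraries 1 to 4 and 20.5, 29.9, 17.8 and 22.3 CPM in mutant libraries. It fell without overlap between the lines, with a log2 fold change of -1.05 ± 0.21 (SE) and an edgeR adjusted p of 0.0124. The adjusted p rose to as much as 0.0727 without parental library 2 or without mutant library 3. Foxq1 had 6.76 ± 1.65 and 8.34 ± 6.20 CPM and did not pass (edgeR adjusted p = 0.893). Of 9 genes listed as locus partners, 7 were tested, with 1 lower (Foxc1) and 0 higher and a median log2 fold change of -0.14, against 0.00 over all tested genes. Next to Wt1, the antisense gene Wt1os had 1 count in all 8 libraries together.

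Paralogues of the other members were scarce. Osr2 had at most 20 counts in any library, Nkx2-6 at most 12 and Barx2 0 except for 17 counts in mutant library 1, and all 3 fell below the low-count filter. Nkx2-5, the cardiac relative of Nkx2-3, had 24.5, 10.2, 5.90 and 1.90 CPM in parental libraries 1 to 4 and 7.06, 6.10, 7.08 and 0.00 CPM in mutant libraries. Its lines overlapped (log2 fold change -1.04 ± 0.72, edgeR adjusted p = 0.632). Of 41 other forkhead genes 20 were tested, with 1 higher (Foxp1), 2 lower (Foxc1 and Foxa2) and a median log2 fold change of -0.08. Of 23 NKX, BARX and related homeobox genes, 4 were tested and 0 passed in edgeR, DESeq2 or limma-voom, with 1 (Hlx) at an unadjusted p under 0.05. Of 7 other odd-skipped and WT1-related zinc finger genes, 3 were tested and 0 passed with the same tools, with 1 (Egr1) at an unadjusted p under 0.05.

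Other regulators and signals of lateral plate and visceral mesoderm moved in both directions. These lists were written with earlier results known, so their counts are set beside the share of 1.42% over all genes and carry no test of their own. Of 32 listed regulators 27 were tested, with 4 higher, 2 lower and 21 that did not pass, and a median log2 fold change of -0.04. An unadjusted edgeR p under 0.05 was found for 15 of the 27, so not passing does not mean unchanged. The share of all genes at that unadjusted level is not given here. The balance depended on the fit, with 3 higher and 4 lower without mutant library 4, 2 and 1 without parental library 2, 2 and 2 without parental library 3, 5 and 5 with DESeq2 or among genes with at least 1 count, and 5 and 4 with limma-voom. Of 23 visceral mesenchyme signals 21 were tested, with 3 higher, 2 lower and 16 that did not pass, and a median of 0.11. Of these 21, 7 had an unadjusted edgeR p under 0.05. Over all 10 lists on mesoderm, families, loci and the hedgehog pathway, 16 of 119 distinct tested genes passed, 10 higher and 6 lower, and 16 passed without mutant library 4. Without parental library 2 or without parental library 3 the count was 10.

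Bmp4, the BMP ligand of lateral mesoderm, was called lower in the list of signals, as was Fgf10. Bmp4 had 329, 413, 354 and 272 CPM in parental libraries 1 to 4 and 165, 170, 63.0 and 112 CPM in mutant libraries. Mutant library 3 was the lowest, as for Osr1, Foxf1, Nkx2-3 and Barx1. It fell by 1.42 ± 0.22 (SE) on the log2 scale (edgeR adjusted p = 0.00165). Fgf10, a growth factor of the second heart field and of gut and lung mesenchyme, had 25.1, 20.8, 34.5 and 23.0 CPM in parental libraries 1 to 4 and 11.4, 10.7, 8.17 and 14.3 CPM in the mutant ones. It fell by 1.22 ± 0.27 (SE) on the log2 scale (edgeR adjusted p = 0.0262), but 5 of the 8 fits that left out a library took its adjusted p above 0.05, to at most 0.146. These were the fits without parental library 1 or 3 and without mutant library 1, 2 or 3.

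Rises were seen in factors and signals of the same mesoderm. Tbx4, a T-box factor of lung and hindlimb mesoderm, rose from 20.6 ± 9.78 to 61.3 ± 20.0 CPM (SD, n = 4, edgeR adjusted p = 0.00671). Gata6, a zinc finger factor of heart mesoderm and endoderm, had 137, 156, 110 and 114 CPM in parental libraries 1 to 4 and 240, 208, 200 and 204 CPM in the mutant ones (log2 fold change 0.72 ± 0.13, edgeR adjusted p = 0.00516). Zfpm2, a GATA cofactor, rose from 13.7 ± 2.04 to 35.7 ± 14.5 CPM (edgeR adjusted p = 0.0126), a call that was lost without parental library 2, parental library 3 or mutant library 1. Foxp1, a forkhead repressor, rose by 0.50 ± 0.11 on the log2 scale (edgeR adjusted p = 0.0245), and lost the call in 5 of the 8 fits without a library, those without parental library 2, 3 or 4 and without mutant library 3 or 4. The WNT modulator Sfrp1 and the chemokine Cxcl12 rose by 0.96 ± 0.16 and 0.89 ± 0.15 (edgeR adjusted p = 0.00356 and 0.00422).

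**Figure D3:**
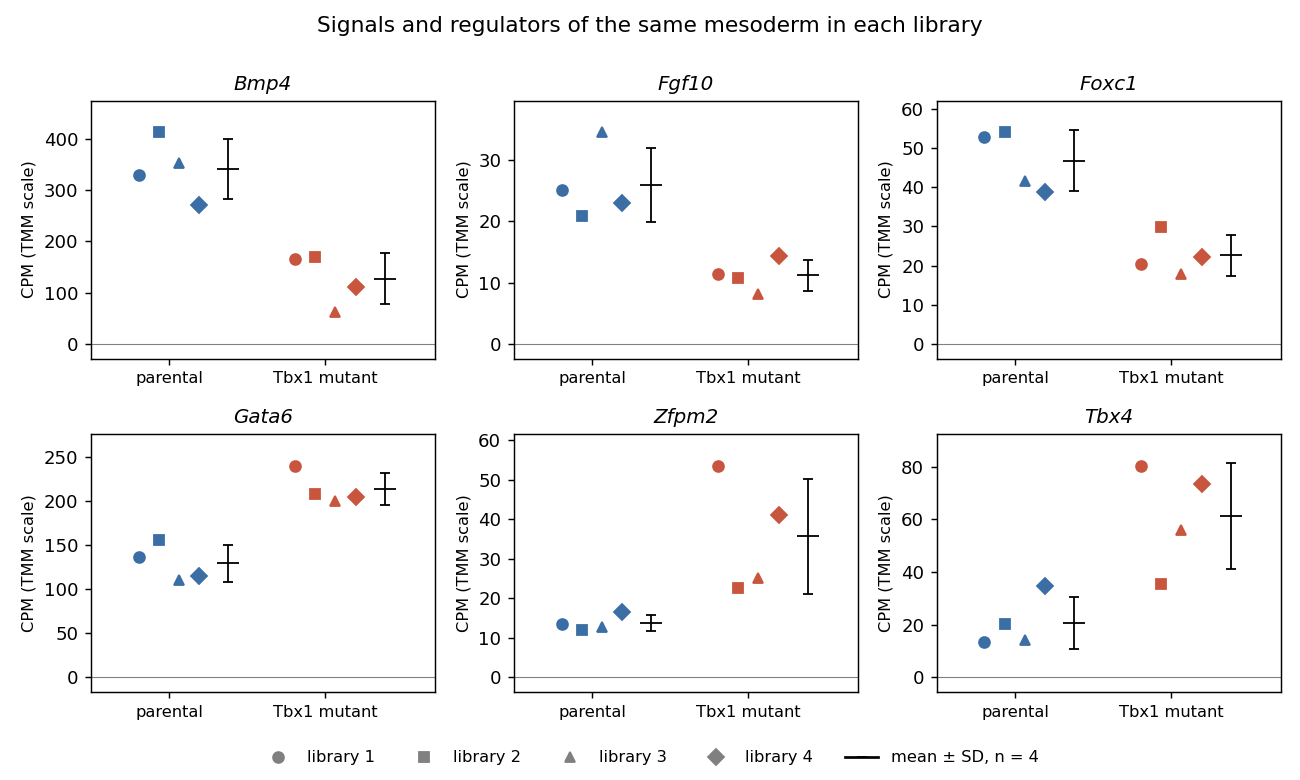
Level in CPM on the TMM scale (vertical axes, linear, each with its own range) of Bmp4, Fgf10, Foxc1, Gata6, Zfpm2 and Tbx4 in 4 parental (blue) and 4 Tbx1 mutant (red) libraries, with the mean ± SD in black and marker shapes for library numbers. Bmp4, Fgf10 and Foxc1 are lower and Gata6, Zfpm2 and Tbx4 higher in all mutant libraries than in any parental library.

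The hedgehog pathway, which acts upstream of the Foxf genes in visceral mesoderm, gave 1 higher (Gas1), 0 lower and 11 that did not pass among 12 tested genes, with a median log2 fold change of 0.29. An unadjusted edgeR p under 0.05 was found for 3 (Ptch1, Gli3 and Gas1). Among genes with at least 1 count, 1 of the list was called higher and 1 lower. Gas1, a co-receptor for hedgehog ligands, rose from 117 ± 12.6 to 195 ± 17.1 CPM (SD, n = 4, edgeR adjusted p = 0.00272). Ptch1, the receptor and a transcriptional target of the pathway, and the ligand Shh were chosen with their values in view. Ptch1 had 94.6, 98.9, 119 and 87.0 CPM in parental libraries 1 to 4 and 84.3, 77.8, 30.2 and 60.8 CPM in the mutant ones, lowest in mutant library 3. Its mutant libraries all lay below its parental ones, by a narrow gap, and it did not pass (edgeR adjusted p = 0.200). Shh had at most 30 counts in any library and did not pass (log2 fold change -1.66 ± 0.89, edgeR adjusted p = 0.496).

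Tissues that share a member were compared through their own lists. For intermediate mesoderm and nephric genes, which share Osr1 and Wt1 expression, 11 of 19 were tested, with 0 higher, 2 lower and a median log2 fold change of -0.53. Of these 11, 7 had an unadjusted edgeR p under 0.05. Sall1, a zinc finger factor of kidney progenitors, fell by 0.91 ± 0.21 on the log2 scale (edgeR adjusted p = 0.0358), but its lines overlapped and the call was lost in 6 of the 8 fits without a library (adjusted p at most 0.146) and with scaling by library size alone. The fits without parental library 1 and without mutant library 2 kept it. Podxl, a surface sialomucin of podocytes, endothelium and mesothelium, fell from 145 ± 36.1 to 74.0 ± 22.0 CPM (SD, n = 4, edgeR adjusted p = 0.0200), and lost the call without parental library 1, 2 or 3. For epicardium and mesothelium, where Wt1 is a marker, 15 of 20 genes were tested, with 0 higher and 1 lower (Podxl), a median of -0.04, and Msln, Aldh1a1 and C3 at 0 counts in every library. DESeq2 called 1 of the list higher, 3 were called higher among genes with at least 1 count, and 6 had an unadjusted edgeR p under 0.05. For somatic lateral plate and limb genes, 15 of 17 were tested, with 3 higher, 0 lower and a median of 0.11. These were Tbx4, the mesenchymal factor Twist1 (log2 fold change 1.29 ± 0.18, edgeR adjusted p = 0.000551) and the homeobox factor Lhx2 (2.96 ± 0.54, edgeR adjusted p = 0.00612). Lhx2 had 40.4 CPM in mutant library 4 and 7.41 to 14.6 CPM in the other mutant libraries. Without mutant library 4 its log2 fold change was 2.19, and it lost the call with limma-voom (limma adjusted p = 0.104).

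**Figure D4:**
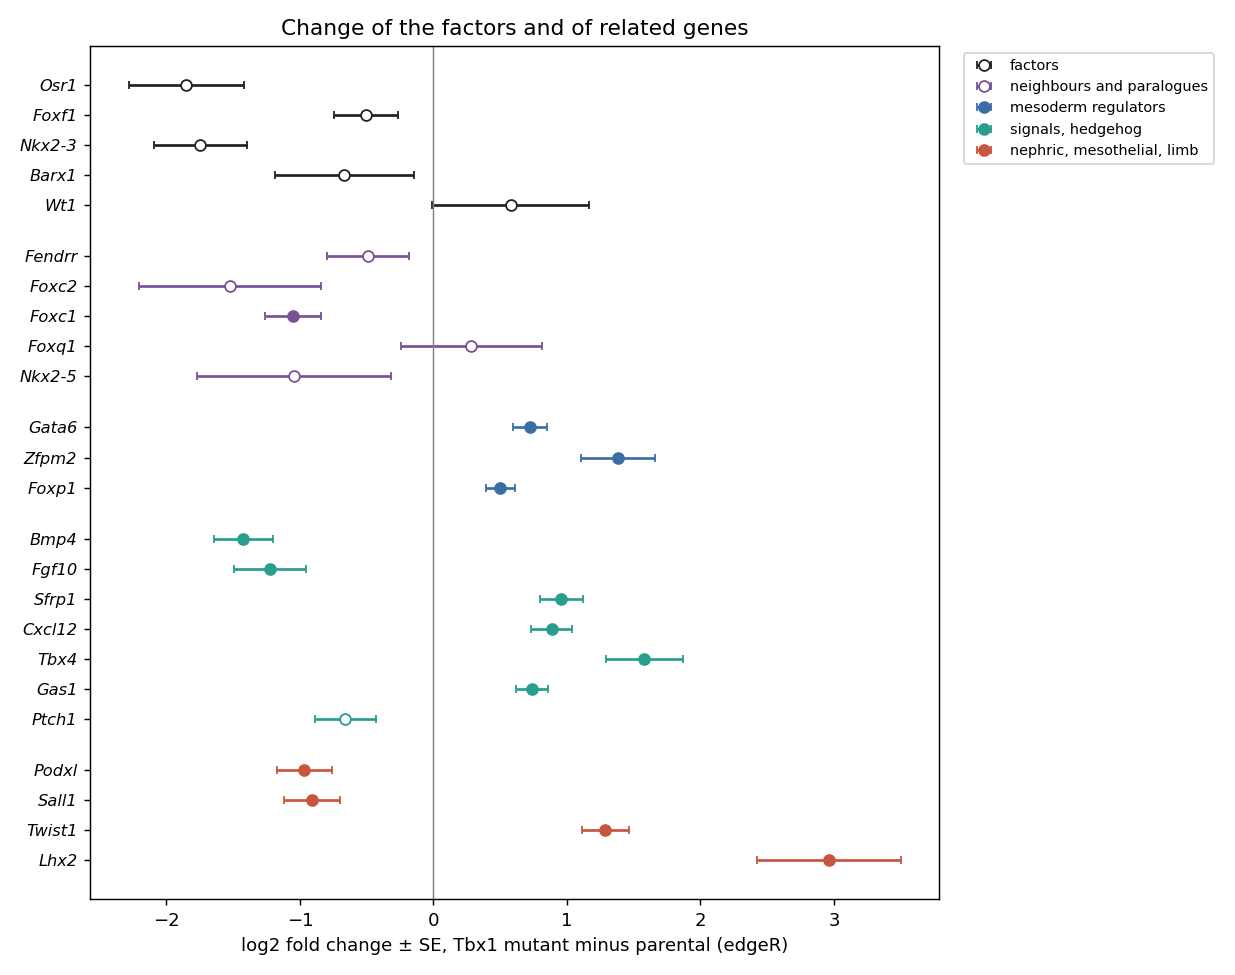
The edgeR log2 fold change, mutant minus parental (horizontal axis), with its SE for the 5 tested factors and for related genes, grouped by colour. Filled points have an adjusted p under 0.05 over all 13280 tested genes; open points do not, except that the 5 factors are drawn open throughout because they carry no test here. Of the genes drawn, Osr1 at -1.85 and Nkx2-3 at -1.75 lie lowest and Lhx2 at 2.96 highest; Foxa2 at -1.93 and the blood genes are not drawn.

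Marker genes of other cell types moved with the lines in part. The summed level of 18 endothelial and blood genes was 632 to 952 CPM in parental and 1214 to 1994 CPM in mutant libraries, without overlap. Of 17 tested genes, 3 were called higher (the globins Hba-x, Hbb-bh1 and Hbb-y) and 0 lower, so the main fit called no endothelial gene. Without mutant library 4, 4 genes of the list were called higher. Of the 17, 14 had a positive log2 fold change (median 0.40). An unadjusted edgeR p under 0.05 was found for 5, the globins with Tal1 and Runx1. The globins held a large part of the rise, with Hbb-bh1 at 72.8 to 123 CPM in parental and 366 to 480 CPM in mutant libraries. Hba-x was at 27.9 to 35.5 and 171 to 357 CPM. For 26 definitive endoderm and foregut genes the sums were 457 to 829 CPM and 399 to 512 CPM, with 2 of 20 called lower (Krt18 and Foxa2) and 0 higher. Both calls were lost without parental library 1 or 2 and without mutant library 3, and that of Foxa2 also without parental library 3 or 4, without mutant library 2 and with limma-voom. Foxa2, a forkhead factor of the endoderm that secretes hedgehog ligands, had 18.2, 16.7, 12.3 and 14.1 CPM in parental libraries 1 to 4 and 6.72, 3.05, 4.54 and 1.37 CPM in the mutant ones (edgeR adjusted p = 0.0254). Cardiomyocyte sums ran from 687 to 4015 CPM in parental and from 139 to 1095 CPM in mutant libraries, and 0 of 15 tested genes had a positive log2 fold change, with a median of -1.24. None of the 15 was called by edgeR, DESeq2 or limma-voom, and 8 had an unadjusted edgeR p under 0.05. Without parental library 4, 2 genes of the list were called lower, and 10 were among genes with at least 1 count. Smooth muscle sums were 819 to 1990 and 923 to 1112 CPM (0 of 11 called, 2 at an unadjusted p under 0.05, 2 called lower without parental library 4, 1 without mutant library 4 and 3 among genes with at least 1 count), and neural sums 291 to 361 and 283 to 401 CPM (0 of 10 called, 1 at an unadjusted p under 0.05). Pluripotency sums were 75.3 to 101 and 89.6 to 128 CPM, with Klf2 called higher and 0 lower among 9, a call lost without parental library 2 or 3 and without mutant library 1 or 3. Within lines, deviations of the cardiomyocyte sum had r = -0.23 with Osr1 (exact permutation p = 0.526) and r = 0.24 with Nkx2-3 (exact permutation p = 0.679). Both values depended on few libraries. Without the 2 libraries farthest from the median of the gene, r was -0.67 for Osr1 and 0.79 for Nkx2-3. The part of these cell types in the difference of Osr1 and Nkx2-3 between the lines was not tested.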

How the data were processed

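The values are unnormalized counts of reads per gene from QuantSeq 3′ libraries, which the authors deposited as whole numbers in a joint table. The submitters' processing notes name STAR, featureCounts and mm10; versions, annotation and filters are not given in the sources used here, and forward-strand counting is stated in the name of the deposited table. Of 55487 identifiers, 55141 were matched without version number to GENCODE M21 (GRCm38). All results were computed with edgeR 4.0.16 (R 4.3.3): filterByExpr, TMM scaling and a quasi-likelihood F test with the line as the only term, with Benjamini-Hochberg adjustment over 13280 genes and a threshold of 0.05. Each SE is the fold change divided by the root of F. Log2 CPM used a prior count of 2.

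The 6 members and all gene lists were chosen with earlier results of these data known. Named genes were the members, Tbx1, called genes of each list (up to 5 by p, or 3 for other cell types), locus neighbours, paralogues and the 3 most similar genes per member of at least 10 CPM. The values of 1 called gene of the regulator list are not reported here, though the list's counts include it. Counts of 0 and floors (3 counts) cover counting error only. No pair of libraries of the same line agreed within sampling noise (chi-square per degree of freedom from 7.04 to 24.2). No label states that libraries with the same replicate number were paired, and the main fit did not pair them. P-values of the fits set the difference between the lines against the spread among libraries within each line. They do not extend to other lines. Alternatives used RLE or library-size scaling, other filters, DESeq2 1.42.0, limma-voom (limma 3.58.1), a replicate block and leaving out each library.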

Additional observations from a re-analysis of the deposited data

Results flagged for a closer look

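In 69 groups of 4 libraries over 36 named genes, the gap between an extreme library and its nearest neighbour was compared with the range of the group, and 5 groups exceeded the 95% limit of Dixon's test, where chance gives about 1 in 20. Nkx2-5 was at 0.00 CPM in mutant library 4, against 6.10 to 7.08 CPM in the other mutant libraries. Foxp1 was at 249 CPM in parental library 1, against 203 to 208 CPM in the other parental libraries. The other 3 rest on few counts: Barx2 at 2.86 CPM (17 counts) in mutant library 1, Nkx2-6 at 0.872 CPM (4 counts) in mutant library 2 and Wt1os at 0.182 CPM (1 count) in mutant library 3, each with 0.00 CPM in the other mutant libraries. Among Osr1, Foxf1, Foxf2, Nkx2-3, Barx1 and Wt1, 0 of the groups exceeded the limit.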

How the results depend on the processing

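The log2 fold changes of Osr1, Foxf1, Nkx2-3, Barx1 and Wt1 kept their sign in all 15 alternatives. The value of Wt1 was 1.14 with limma-voom. Leaving out each library gave -2.69 to -1.53 for Osr1, -2.06 to -1.52 for Nkx2-3, -0.72 to -0.35 for Foxf1, -0.90 to -0.35 for Barx1 and 0.18 to 0.82 for Wt1. The number of genes called over the table was 188. It was 439 among genes with at least 1 count and 405 with DESeq2, and leaving out a library gave 103 (without parental library 2) to 235, with 104 without parental library 3 and 116 without mutant library 3. For the 10 lists the count of 16 became 26 among genes with at least 1 count and ran from 10 to 16 when a library was left out. The cause of these moves was not tested. Scaling by library size alone made 63.7% of called genes higher, against 52.7% with TMM. With the replicate number as a block, a pairing that same-numbered libraries did not show (mean correlation of deviations 0.028, against -0.0094 for other numbers), 234 genes were called, and Osr1 was at -2.11, Nkx2-3 at -1.83, Foxf1 at -0.53, Barx1 at -0.74 and Wt1 at 0.90. The block also called 6 cardiomyocyte and 2 smooth muscle genes lower and 2 epicardial and mesothelial genes higher, against 0 without it. Correlations of deviations, with libraries left out as a choice made after seeing the data, ran from 0.40 to 0.92 for Osr1 and Nkx2-3, 0.52 to 0.94 for Osr1 and Barx1, 0.53 to 0.91 for Foxf1 and Barx1 and -0.83 to -0.50 for Nkx2-3 and Wt1. Foxf2 lies at the limit of depth.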
